A study of Mus musculus with 12 samples.

Results

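The comparison described here set primary mouse cortical neurons that expressed a short hairpin RNA (shRNA) against Zfr beside neurons that expressed the control hairpin shControl2. It covers 4 of the 12 samples of the series, namely replicates 1 and 2 of shZfr and replicates 1 and 2 of shControl2. Across genes it takes all 23955 genes of the tables, of which 14785 had enough reads to be tested. Across editing sites it takes the 5236 of 46689 listed sites that had 20 or more reads in each of the 4 samples.

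The neurons came from the cortex of C57BL/6J embryos at day E16.5 of gestation, were infected with lentivirus carrying 1 hairpin in the pGreenPuro backbone, and were harvested 7 days after dissection. The series holds 5 groups, and the others are shControl1, a further control hairpin, and the hairpins shAdar1 and shAdar2. The submitters' design assigns shControl2 to shZfr as its control. All groups share the strain, the embryonic day, the harvest day and the viral backbone, and each knockdown rests on a single hairpin. The labels do not say whether groups or replicates came from separate cultures. The p-values here therefore measure the spread between these samples, which may be technical.

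ADAR enzymes convert adenosine to inosine within double-stranded RNA, and sequencers see inosine as G. The editing level of a site is accordingly the percentage of its reads that carry G. ADAR1 (gene Adar) edits many sites in repeats and untranslated regions, and ADAR2 (gene Adarb1) is known in neurons for sites in receptor and channel transcripts. Zfr encodes a zinc finger RNA-binding protein whose DZF domain is shared with, among others, Zfr2, Strbp (Spnr) and Ilf2 (NF45). NF45 pairs with other DZF proteins through this domain.

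The 4 samples held 1.91e+07 to 2.45e+07 expected counts and 609182 to 676955 reads at listed sites. The spread between replicates was unusually small in shZfr. Over 12566 genes, the squared difference between its 2 samples was 1.318 times that of pure sampling noise in the median, against 5.449 times in shControl2 and 9.175 to 28.883 times in the other groups with a pair. The difference still exceeded sampling noise, but this cannot tell separate cultures from 1 culture split late, since library preparation adds spread too. Both shZfr samples were kept as 2 replicates because the labels number them so. For this reason counts with both summed to 1 sample are given beside the main results. As checks of the culture, the neuronal genes Map2, Rbfox3 and Snap25 were expressed in all 4 samples. The microglial markers Cx3cr1, Csf1r and Aif1 and the endothelial marker Cldn5 had too few reads to be tested. However, 3 of 8 listed microglia markers and 10 of 11 endothelial, mural and fibroblast markers were tested. Other cell types were present too. Summed normalised read counts (CPM) of astrocyte and radial glia markers were 3970 and 4479 in the shControl2 samples. Those of oligodendrocyte lineage markers were 460 and 457, and those of proliferating progenitor markers 579 and 623.

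Zfr, the targeted gene, had normalised read counts of 422 and 496 CPM (read counts after normalisation for library size) in the 2 shControl2 samples and 173 in each shZfr sample. The groups did not overlap, and 37.6% of the transcript was left (log2 fold change −1.41 ± 0.11 SE, edgeR quasi-likelihood test with Benjamini-Hochberg adjusted p = 6.36e-05). The size of this decrease depended on the control hairpin, since Zfr stood at 290 and 268 CPM in the shControl1 samples. Against shControl1 the log2 fold change of Zfr was −0.69 (adjusted p = 0.000941, edgeR), and Zfr was higher in shControl2 than in shControl1 by 0.72 on the log2 scale (adjusted p = 0.000886, edgeR). Zfr also stood at 188 CPM in the mean of the shAdar2 samples, near its level in shZfr.

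Ilf2, whose product NF45 binds Zfr-family proteins, rose from 60.5 and 57.3 CPM to 108 and 105 CPM (log2 fold change 0.85 ± 0.12, adjusted p = 0.00101, edgeR). Strbp had log2 fold change 0.36 and adjusted p = 0.0526, and Zfr2 had 0.21 and adjusted p = 0.465 (both edgeR).

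Of the editing enzymes, the gene of ADAR2 fell. Adarb1 stood at 99.4 and 92.0 CPM in shControl2 and at 49.2 and 45.5 CPM in shZfr, so that 49.5% was left and the groups did not overlap. Its log2 fold change was −1.02 ± 0.12 (adjusted p = 0.000381, edgeR), and it was −1.35 against shControl1 (adjusted p = 4.03e-05, edgeR). The mean in shZfr, 47.3 CPM, was beside the 50.2 CPM of Adarb1 in the samples that carried the hairpin shAdar2. Adar, which encodes ADAR1, had 139 and 118 CPM in shControl2 and 140 and 133 CPM in shZfr (log2 fold change 0.09 ± 0.13, adjusted p = 0.656, edgeR). Adarb2, a family member without known catalytic activity, had a log2 fold change of −0.04 ± 0.26 (adjusted p = 0.922, edgeR). The value of Adar depended on the control hairpin. Against shControl1 its log2 fold change was −0.34 (adjusted p = 0.0556, edgeR). Adar was lower in shControl2 than in shControl1 by 0.42 on the log2 scale (adjusted p = 0.0246, edgeR). Of the 3 family genes, only Adarb1 passed the test of shZfr against either control.

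**Figure D1:**
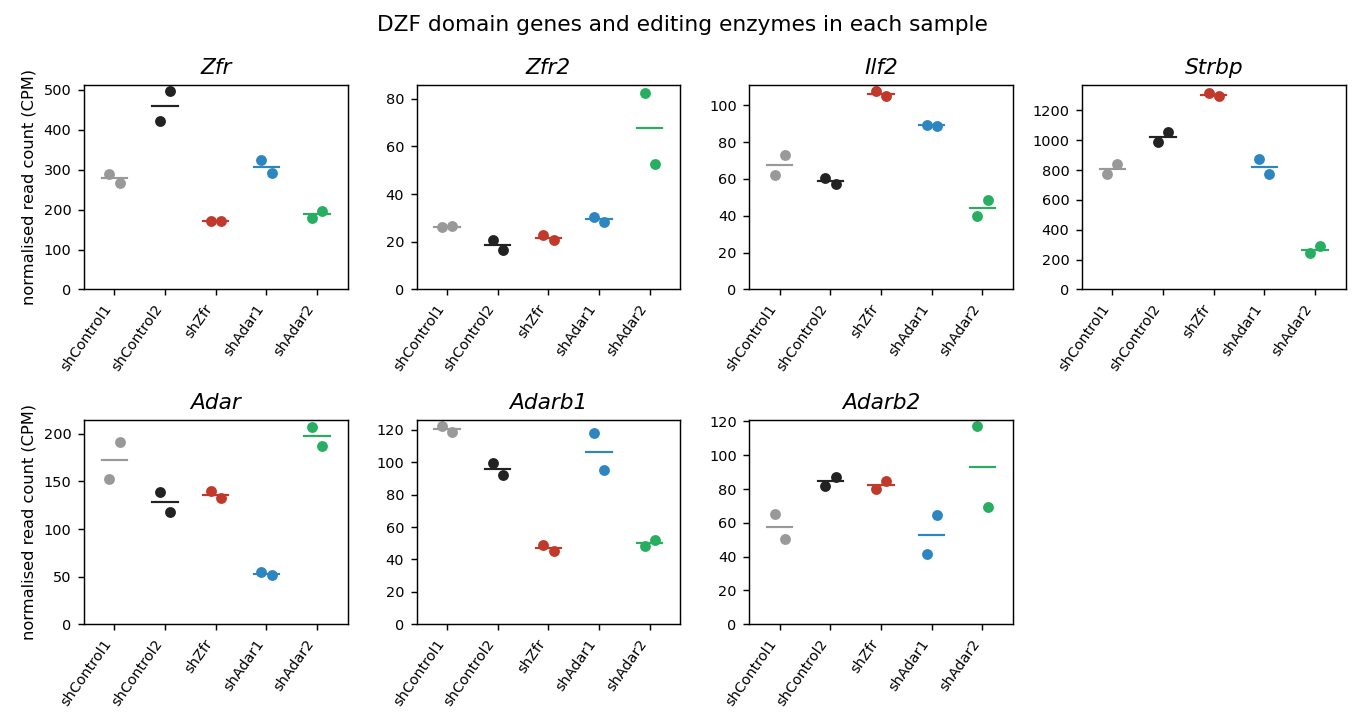
Normalised read counts (CPM, linear axis from 0) of 4 DZF domain genes and the 3 Adar family genes in the 10 samples, by group; each point is 1 sample and the bar is the group mean. Zfr is at 173 CPM in both shZfr samples, Adarb1 is at 47.3 CPM in the mean of shZfr against 95.7 CPM in shControl2, and Ilf2 is higher in shZfr than in each control.

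Editing was lower in shZfr at many sites and higher at 1. Of the 5236 sites with enough reads, 2696 had no edited read in any of the 4 samples and 1228 had too few edited or unedited reads to test, which left 1312. Among these, 161 (12.3%) passed the test as lower in shZfr and 1 (0.0762%) as higher (edgeR quasi-likelihood test on edited and unedited reads, adjusted p under 0.05). The mean editing level over the 1312 sites was 16.4% and 15.9% in the shControl2 samples and 10.98% and 10.77% in the shZfr samples. The group means were 16.2% ± 0.382 (SD, n = 2) and 10.9% ± 0.144 (SD, n = 2), a difference of −5.28 percentage points that was several times the spread within either group. An exact permutation test of 2 samples against 2 cannot give a two-sided p below 1 in 3, so this mean was not given one.

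The decrease extended past the called sites. The mean level was lower in shZfr at 975 of the 1312 tested sites (74.3%) and higher at 337. Both shZfr samples lay under both shControl2 samples at 592 tested sites and above both at 98. Such separation is another measure than the test, which 12.3% and 0.0762% of the tested sites passed as lower and higher. With 2 samples a group, sites can also separate where the groups do not differ, and how many would was not computed. The median odds of editing in shZfr were 0.596 times those in shControl2 over tested sites. At the 161 lower sites the median level went from 25.8% to 4.79%, and the median odds ratio was 0.158. Reads at these sites were not fewer in shZfr: the median log2 ratio of normalised reads, shZfr over shControl2, was 0.34 at lower sites and 0.35 at all tested sites. The count of lower sites depended most on shControl2 replicate 1, with 17 lower without it, 106 without shControl2 replicate 2, 93 without shZfr replicate 1 and 97 without shZfr replicate 2. With both shZfr samples summed to 1 it was 157.

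**Figure D2:**
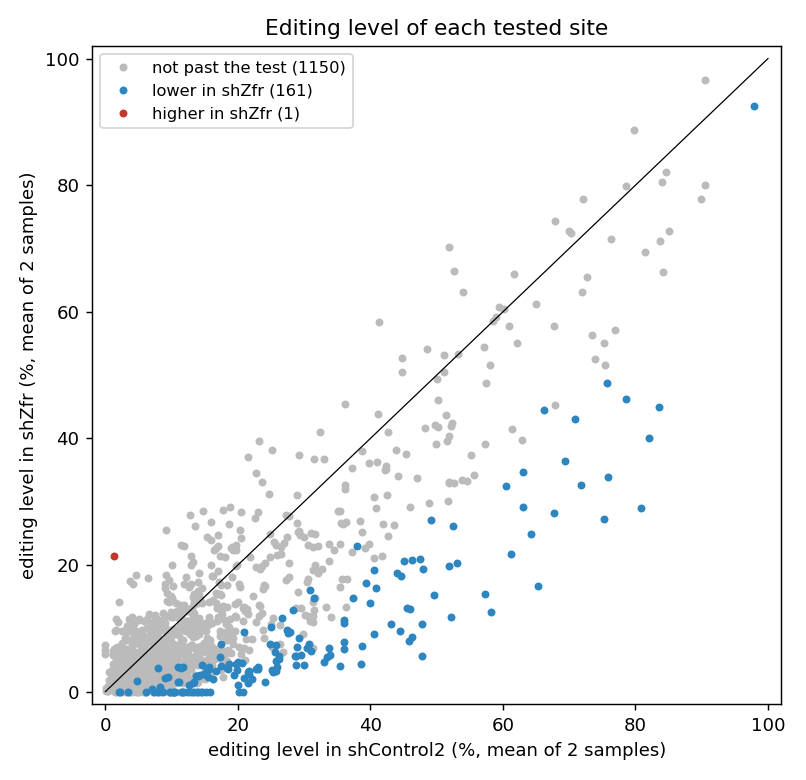
Editing level (%) of each of the 1312 tested sites in shControl2 (x axis) and shZfr (y axis), each the mean of 2 samples, with the line of equal levels. The 161 sites that passed the test as lower in shZfr (blue) lie under the line over the whole range of control levels, and 1 site (red) passed as higher.

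The sites with the largest decreases had mean levels of 47.8% to 82.0% in shControl2. Positions are on the mouse build mm9 as the authors' files give them, and the sites were not assigned to genes here because the annotation at hand is of another build. The site chr10:48964136 was edited in 79.7% of 64 reads and 82.1% of 67 reads in shControl2, and in 19.1% of 47 and 39.0% of 59 reads in shZfr. The 95% Wilson intervals of the shZfr samples, 10.4% to 32.5% and 27.6% to 51.7%, lay under those of the controls, which began at 68.3% and 71.3%; these intervals cover counting error only. Its log2 odds ratio was −3.28 ± 0.45 SE (adjusted p = 5.26e-11, edgeR). Another site of chromosome 10, chr10:48992582, went from 60.2% and 56.3% to 13.3% and 11.8%.

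On chromosome X, chrX:71471989 was edited at 71.2% and 79.4% in shControl2 and at 29.0% and 25.6% in shZfr, with 100 to 133 reads in each sample. Its adjusted p of 4.28e-20 (edgeR) was the smallest of the named sites. The site chr7:66489089 went from 49.4% and 65.2% to 16.3% and 14.5% (adjusted p = 1.65e-17, edgeR). At chr12:25745158 the levels were 74.4% and 77.5% against 36.5% and 31.2%, and at chr17:45799898 they were 54.3% and 50.0% against 16.4% and 7.32%. In all of these the 2 groups did not overlap.

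Other sites rested on fewer reads. The site chr16:75121423 had 26 and 31 reads in shControl2, with levels of 50.0% and 80.6%, and 59 and 68 reads in shZfr, with 18.6% and 14.7%. At chr12:79618122 the levels were 57.1% and 38.5% against 7.14% and 4.00%, with 21 to 28 reads a sample. The site chr16:6560157 went from 80.0% and 84.1% to 40% in both shZfr samples, and chr5:23667567 from 71.4% and 51.1% to 20% and 23.4%. The last 2 sites of the 12, chr12:72095616 and chr12:90876632, fell by 39.5 and 39.4 percentage points. Without shControl2 replicate 1, 5 of these 12 sites no longer passed the test (chr12:79618122, chr16:6560157, chr17:45799898, chr5:23667567 and chr12:90876632), and all 12 passed without any other single sample.

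The site that rose, chr17:63402094, was edited in 1 of 37 and 0 of 23 reads in shControl2 and in 7 of 24 and 4 of 29 reads in shZfr. Its levels were 2.70% and 0% against 29.2% and 13.8% (log2 odds ratio 3.66 ± 1.16, adjusted p = 0.0183, edgeR). The 0 of 23 reads allow a level of up to 14.3% by the Wilson interval. It did not pass against shControl1 (log2 odds ratio 1.07, adjusted p = 0.339, edgeR), nor here when shControl2 replicate 1, shControl2 replicate 2 or shZfr replicate 1 was left out.

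**Figure D3:**
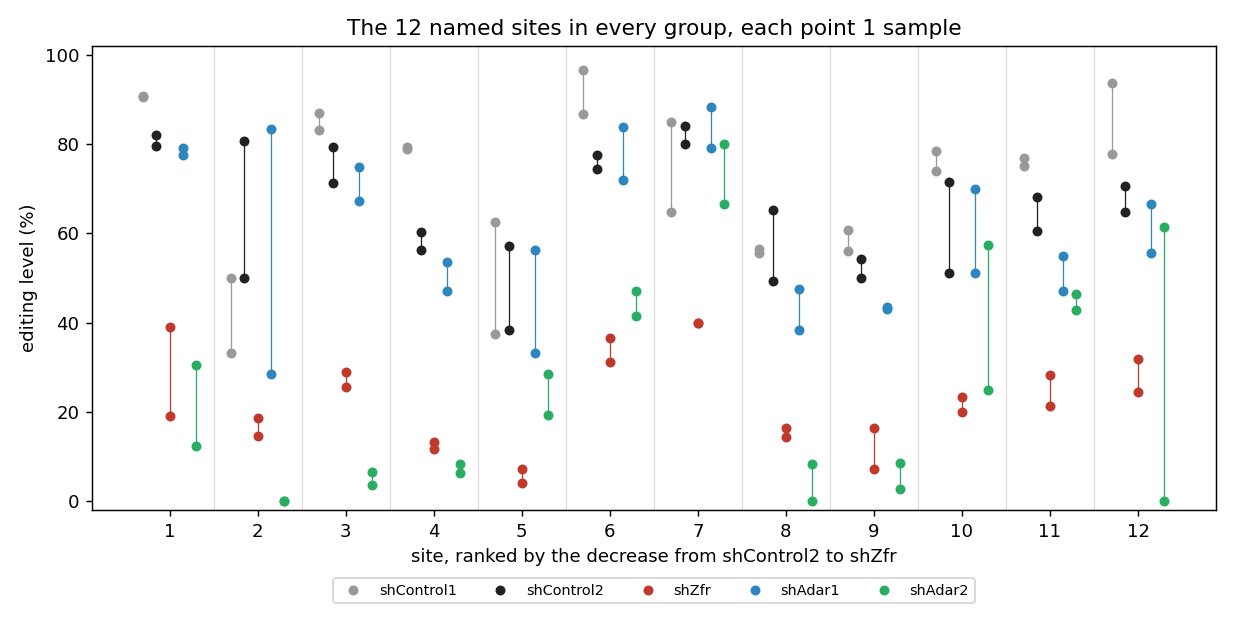
Editing level (%) of the 12 sites with the largest decreases, ranked from 1 (51.8 percentage points) to 12 (39.4), in the 2 samples of each of the 5 groups; a line joins the 2 samples. The shZfr points lie under the shControl2 points at each site, and the shAdar2 points are close to 0 at several of the same sites but rest on as few as 1 read at others.

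When sites at most 10 kb apart were joined, the 161 lower sites lay in 108 of the 547 clusters that held the 1312 tested sites; 80 clusters held 1 lower site, 19 held 2 and 9 held 3 or more. Sites of a cluster can lie on the same RNA and are not independent. The cluster chr7:66487114-66489614 had 9 lower sites of 17 tested, and its mean level was 24.3% and 24.2% in shControl2 and 12.3% and 14.0% in shZfr. In the cluster chr3:80510465-80510909, 7 of 8 tested sites were lower and the mean went from 27.7% and 27.8% to 17.3% and 16.3%. The cluster chr12:25739515-25745161 had 5 of 6 lower, with 31.2% and 31.4% against 9.83% and 10.2%. The mean in shZfr was lower at 17 of 17, 7 of 8 and 6 of 6 tested sites of these clusters. The cluster chr11:75114062-75114543 had 5 of 15 lower, and 14 of 15 had a lower mean.

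Editing measured in the other groups, which the site test did not use, separated the sites further. Of the tested sites, 693 had 20 reads in both shControl1 samples. Where shControl1 was edited at under 10%, 11 of 246 sites were lower in shZfr (4.47%, against 12.3% over all tested sites) and the median odds ratio was 0.707. At 10% to 20% in shControl1, 15 of 194 were lower (7.73%), and at 20% to 40%, 29 of 152 (19.1%). At 40% to 60%, 18 of 52 were lower (34.6%), and at 60% or more, 22 of 49 (44.9%) with a median odds ratio of 0.398. The median difference changed from −0.86 percentage points in the lowest class to −20.2 in the highest. The median odds ratio fell in the same order as the share of lower sites rose. The level itself limits the share called and the difference in points, however. In the lowest class the median shControl2 level was 3.72%, which leaves little room to fall. Tested sites had a median of 36 to 44 reads in a sample, at which such a fall can hardly pass the test. Whether sites of different levels respond differently was not tested.

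The hairpins against the enzymes gave different pictures at the sites tested in both comparisons. Against shControl1, 17 of 105 sites (16.2%) were lower in shAdar2, and 69 of the 105 were also tested for shZfr. Of these 69, 16 were lower in shAdar2, 16 in shZfr and 12 in both, which is 75.0% of either list. The median difference in shZfr was −13.1 percentage points at the 16 shAdar2-lower sites, all of which had a lower mean in shZfr, and −0.98 points at the other 53. For shAdar1, 299 of 890 sites (33.6%) were lower than in shControl1. Of the 577 sites also tested for shZfr, 222 were lower in shAdar1, 89 in shZfr and 21 in both, which is 23.6% of the shZfr list and 9.46% of the shAdar1 list. The median difference in shZfr was −1.51 points at the 222 shAdar1-lower sites and −3.77 points at the other 355. The level of a site limits its difference in points here too, since sites edited at a low level have little room to fall. The levels of these sets of sites were not compared, so whether shZfr acts differently on them was not tested. These comparisons share no sample. The shAdar2 libraries had fewer reads at sites, so their list covers well-read sites only, and the overlaps are given as descriptions without a test.

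Single sites differed in this. The chromosome X site above was at 71.0% in shAdar1 and 5.16% in shAdar2 (means of 2 samples), against 85.1% in shControl1. The cluster around it, chrX:71471988-71472208, had mean levels of 1.60% and 2.45% in the shAdar2 samples, 10.8% and 10.0% in shZfr, and 31.5% and 33.8% in shControl2. At chr10:48992582 the means were 50.4% in shAdar1 and 7.32% in shAdar2, against 79.1% in shControl1. At chr12:72095616, however, shAdar1 and shAdar2 were at 51.0% and 44.7% against 76.0% in shControl1, so the decrease in shZfr was not matched there by a fall to near 0 in shAdar2.

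Gene expression changed widely. Of 14785 genes tested, 2464 (16.7%) were higher and 2078 (14.1%) lower in shZfr than in shControl2 (edgeR quasi-likelihood test, adjusted p under 0.05), and the median log2 fold change of all tested genes was 0.05. With both shZfr samples summed to 1, the counts were 1077 and 932. Leaving out 1 sample gave 1336 higher and 1268 lower without shControl2 replicate 1, 1130 and 1202 without shControl2 replicate 2, 1015 and 936 without shZfr replicate 1, and 942 and 924 without shZfr replicate 2. Against shControl1, which shares the shZfr samples, 3365 genes (22.8%) were higher and 3459 (23.4%) lower. Values against shControl1 are set beside those against shControl2 for many of the genes below, since the 2 controls did not always give the same answer. The list counts below stand beside the 16.7% and 14.1% of all tested genes, and no list was tested against these shares.

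Among the 12 largest increases, Zmat3, a p53-induced zinc finger RNA-binding protein, stood at 71.8 and 70.2 CPM in shControl2 and at 642 and 635 CPM in shZfr. That was 8.99-fold higher (log2 fold change 3.17 ± 0.09, adjusted p = 4.08e-07, edgeR), and it was 2.00 on the log2 scale against shControl1, where the samples had 159 and 161 CPM. Ahnak, a large scaffold protein under the plasma membrane, went from 15.8 and 17.4 CPM to 168 and 171 CPM, and its log2 fold changes against the 2 controls were 3.34 and 3.11. Neat1, the long noncoding RNA on which paraspeckles form, rose from 10.9 and 12.4 CPM to 73.4 and 72.2 CPM (log2 fold change 2.64 ± 0.46, adjusted p = 0.00252, edgeR), and it stood at 5.53 and 7.73 CPM in shControl1. Each of these 3 genes was higher in both shZfr samples than in any sample of either control.

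Rai14, an actin-binding ankyrin protein, rose from 17.3 and 20.9 CPM to 110 and 113 CPM. The orphan receptor gene Gpr50 rose from under 0.5 CPM to 8.52 and 9.05 CPM, and the chloride channel gene Ano1 from 0.859 and 0.639 CPM to 9.78 and 9.80 CPM. Serinc2, the myosin light chain gene Myl12a, the basement membrane gene Nid1 and the filamin gene Flnc were also among the 12, with log2 fold changes of 3.27, 3.22, 2.96 and 2.90. Their levels in shZfr were between 6.62 and 21.5 CPM. Each of these 7 genes also passed the test as higher than in shControl1.

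For the other 2 of the 12, the answer depended on the control. Ptx3, a secreted pentraxin, rose from 1.67 and 1.23 CPM to 7.19 and 8.44 CPM, but stood at 12.0 and 15.3 CPM in shControl1 (log2 fold change −0.80 against it, adjusted p = 0.163, edgeR). Gdf1 had no read in either shControl2 sample and 12.7 and 29.5 CPM in shZfr, at least 301-fold higher, taking a floor of 3 counts over the shControl2 group. It stood at 1.38 and 26.3 CPM in shControl1, a range that holds the first shZfr value, and its call was lost without either shControl2 sample and without shZfr replicate 2. Gdf1 shares a transcription unit with Cers1, so its estimated counts are uncertain.

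The largest decrease was that of Hapln1, which encodes a link protein of the hyaluronan matrix around neurons. It stood at 90.7 and 101 CPM in shControl2 and at 2.36 and 1.96 CPM in shZfr, 44.4-fold lower (log2 fold change −5.47 ± 0.24, adjusted p = 6.25e-06, edgeR). Against shControl1, with 40.3 and 26.4 CPM, it was −3.95. Adcy1, a calcium-stimulated adenylyl cyclase of neurons, fell from 1204 and 1066 CPM to 108 and 103 CPM, and its log2 fold changes were −3.43 and −3.11 against the 2 controls. Nrgn, the postsynaptic calmodulin-binding protein neurogranin, fell from 86.9 and 79.0 CPM to 6.79 and 7.64 CPM. Thy1, a neuronal surface glycoprotein, fell from 96.2 and 84.2 CPM to 7.65 and 8.24 CPM. Ankrd45 fell from 70.9 and 79.8 CPM to 6.50 and 7.54 CPM. All 5 were lower in both shZfr samples than in any sample of either control, and all 5 passed the test against shControl1 too.

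The other 7 of the 12 were Gm2115, Fgf1, Fam107a, S100b, Vwa5b1, Alpl and Alpk1, with log2 fold changes of −4.19, −4.00, −3.64, −3.56, −3.52, −3.44 and −3.39. Of these, Gm2115 and Alpk1 also passed against shControl1. Fgf1, Fam107a, S100b, Vwa5b1 and Alpl did not, with log2 fold changes of −1.41, −0.67, −1.08, 0.14 and −0.99 there. S100b, a calcium-binding protein of astrocytes, stood at 8.83 and 10.3 CPM in shControl2, at 0.863 and 0.754 CPM in shZfr and at 2.38 and 1.06 CPM in shControl1, and its call was lost when either shZfr sample was left out.

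**Figure D4:**
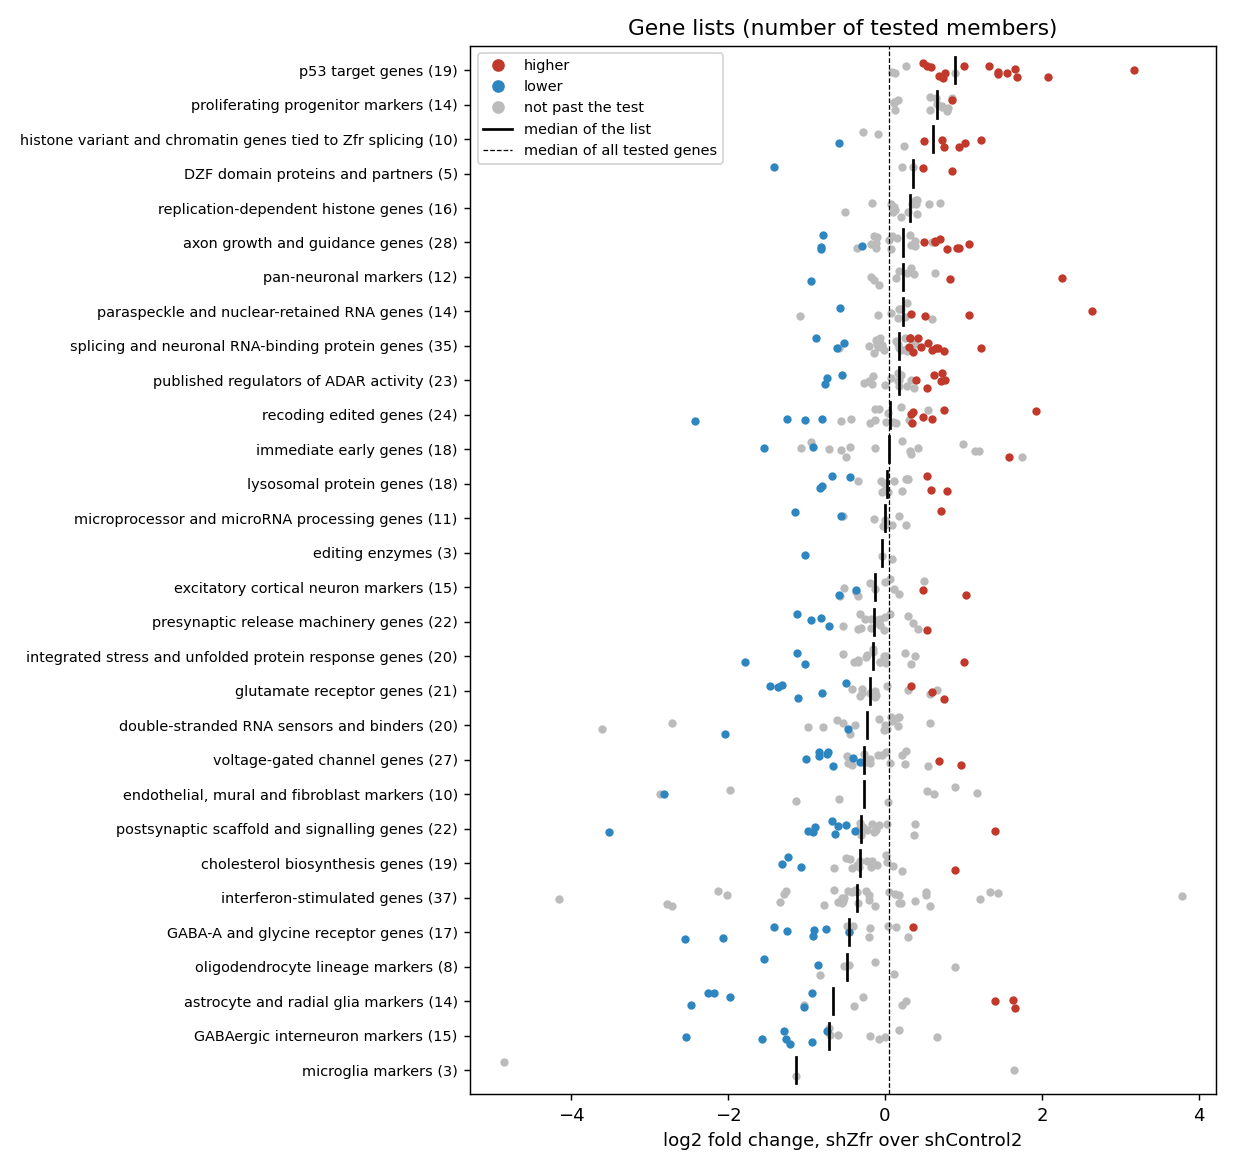
Log2 fold change (shZfr over shControl2) of every tested member of the 30 gene lists, ordered by the median of the list (black bar), with the number of tested members in brackets; red and blue points passed the test as higher and lower, grey points did not, and the dashed line is the median of all tested genes, 0.05. The p53 target genes lie highest among the lists with more than 10 tested members, and GABAergic interneuron markers lowest.

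The transcription factor p53 induces genes of growth arrest and cell death, and most of its listed targets were higher in shZfr. Of 19 tested members, 15 rose and 0 fell, against 16.7% and 14.1% of all tested genes, and all 19 log2 fold changes were above 0 with a median of 0.89. When any 1 of the 4 samples was left out, 8 or 9 members passed, and 9 passed with the shZfr samples summed. Cdkn1a, the cell cycle inhibitor p21, rose from 30.7 and 24.5 CPM to 75.1 and 74.7 CPM (log2 fold change 1.44 ± 0.16, adjusted p = 0.000279, edgeR). Trp53inp1, a p53-induced nuclear protein, rose from 174 and 244 CPM to 562 and 578 CPM. Pmaip1 (Noxa) and Bbc3 (Puma), which promote cell death, rose by 1.66 and 1.33 on the log2 scale. Bax, Btg2, Fas, Sesn1, Sesn2, Mdm2, Ccng1, Aen, Phlda3 and Gtse1, along with Zmat3, make up the rest of the 15, and Perp, Eda2r, Ei24 and Gadd45a did not pass.

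The same list looked different beside the other control. Against shControl1 its median log2 fold change was −0.24, and between the controls, shControl2 minus shControl1, it was −1.11. Cdkn1a stood at 81.7 and 102 CPM in shControl1, above both shZfr samples, and was 1.74 lower in shControl2 than in shControl1 on the log2 scale (adjusted p = 7.32e-05, edgeR). Pmaip1 stood at 52.9 and 58.4 CPM in shControl1, above the 38.1 and 38.5 CPM of shZfr. Bax was lower in shZfr than in shControl1 by the test (log2 fold change −1.06, adjusted p = 0.000524, edgeR), the opposite of its call against shControl2. Trp53inp1, Ccng1 and Zmat3 rose against both, with log2 fold changes of 1.51, 0.91 and 2.00 against shControl1. Which of the 2 control levels is the usual one for these neurons was not tested.

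**Figure D5:**
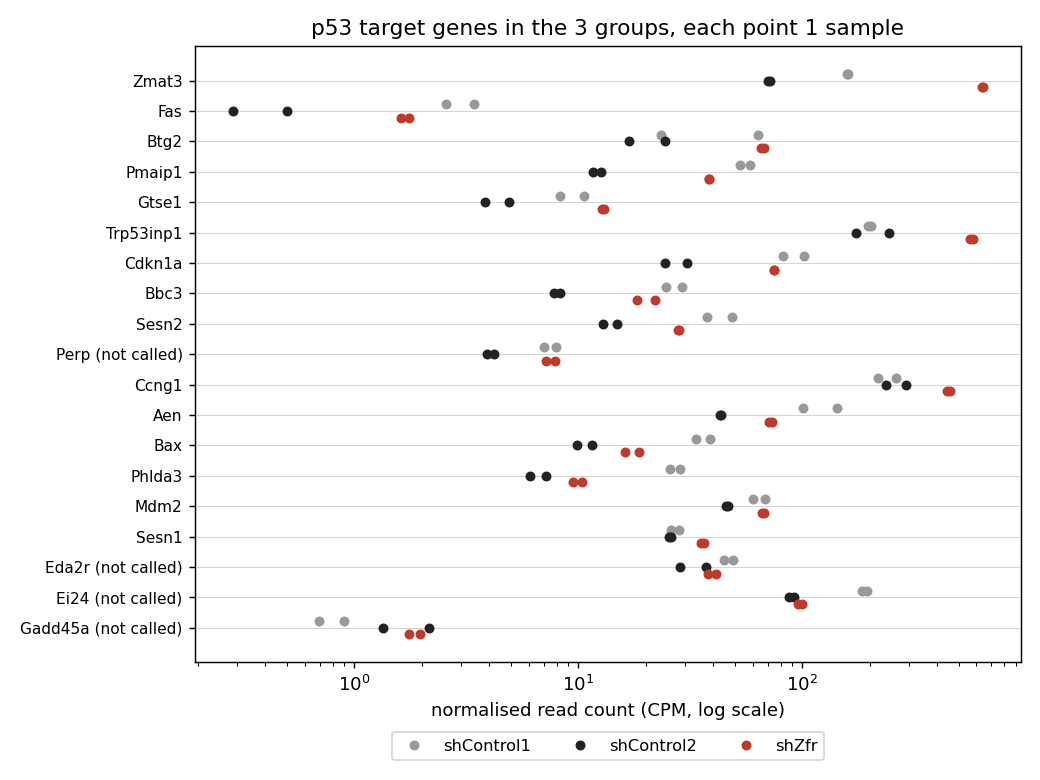
Normalised read counts (CPM, log axis) of the 19 tested p53 target genes in the 2 samples each of shControl1 (grey), shControl2 (black) and shZfr (red), ordered by log2 fold change, shZfr over shControl2. The shZfr points are to the right of the shControl2 points for the 15 called genes, while those of Cdkn1a, Pmaip1 and Bax lie to the left of the shControl1 points.

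Promoter sequences of these genes are shown because 15 members moved together. RefSeq windows of 300 bases around an annotated start (build GRCm38.p6) were found for 15 of the 19 members, and not for Perp, Pmaip1, Trp53inp1 and Zmat3. A gene could have several windows (32851 windows in all), and a match in any of them counted. The 10-base unit of the p53 response element, which is its own reverse complement and so was searched once for both strands, occurred in the windows of 9 of the 15 genes (60%), against 9.55% of the 27025 genes with a window. No other motif was searched. The list consists of genes known as p53 targets, so this share describes the choice of the list. The matches below are written 5′ to 3′ on the strand of the gene, with the 10-base unit in capitals. Each range covers the 30 bases printed, and each distance runs from the first base of the unit to the start site of that window. That start need not be the main start of the gene. Another Cdkn1a match, 73 bases before the start site, is not printed. Shown are Cdkn1a (chr17:29090918-29090947, plus strand, unit 51 bases before the start site), Bax (chr7:45467080-45467109, minus strand, 201 bases before), Ccng1 (chr11:40755452-40755481, minus strand, 185 bases before) and Mdm2 (chr10:117710925-117710954, minus strand, 186 bases before).
Cdkn1a: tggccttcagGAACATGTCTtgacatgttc
Bax: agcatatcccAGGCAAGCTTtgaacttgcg
Ccng1: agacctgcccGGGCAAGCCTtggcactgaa
Mdm2: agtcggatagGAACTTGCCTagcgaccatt
Gadd45a and Ei24 had a match too and did not pass the test (log2 fold changes 0.09 and 0.13), while Btg2, Fas, Bbc3, Sesn2 and Phlda3 rose and had none in their windows.

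Genes induced by interferon are known to rise when ADAR1 is lost, because unedited double-stranded RNA is sensed by MDA5 (Ifih1). Here 0 of 37 tested members passed the edgeR test in either direction, with 5 at an unadjusted p under 0.05 and a median log2 fold change of −0.36. DESeq2 called 0 higher and 2 lower. In the 4 samples alone edgeR called 1 higher and 7 lower, and with a term for the replicate number 1 higher and 9 lower. Their summed level was 157 and 169 CPM in shControl2 and 137 and 125 CPM in shZfr. Cxcl10, a chemokine, was under 1.6 CPM in all 4 samples. Many members were near 0, where this depth cannot show a change. Of 20 tested sensors and binders of double-stranded RNA, 0 rose and 2 fell. The single-strand and purine-rich element binding protein gene Purb fell from 798 and 807 CPM to 197 and 195 CPM (log2 fold change −2.03 ± 0.13, adjusted p = 3.22e-05, edgeR), and it stood at a mean of 829 CPM in shControl1.

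Of 23 tested genes published as regulators of ADAR activity, 6 rose and 3 fell. Of all tested genes 16.7% rose and 14.1% fell, so the share that fell is near that of all genes. The fragile X family was split: Fmr1 fell from 227 and 251 CPM to 140 and 142 CPM, while Fxr1 rose from 95.8 and 106 CPM to 168 and 166 CPM and Fxr2 from 55.7 and 52.2 CPM to 92.2 and 91.9 CPM. Against shControl1 the log2 fold change of Fmr1 was −0.05 (adjusted p = 0.768, edgeR), whereas Fxr1 and Fxr2 passed as higher. Dgcr8, the RNA-binding subunit of the microprocessor, rose by 0.72, and Nop14, Rps14 and Srsf9 made up the rest of the increases. Wwp2, a ubiquitin ligase that acts on ADAR2 protein, fell by 0.74 on the log2 scale. When 1 of the 4 samples was dropped, 3 to 5 of the list rose and 1 to 3 fell.

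Of 24 tested transcripts known to be recoded by editing, 7 rose and 4 fell, with a median log2 fold change of 0.07, where 16.7% and 14.1% of all tested genes rose and fell, so the share that fell is near that of all genes. Htr2c, the serotonin 2C receptor, rose from 13.2 and 11.1 CPM to 44.2 and 48.6 CPM (log2 fold change 1.93 ± 0.23, adjusted p = 0.000354, edgeR), but stood at 45.6 and 41.1 CPM in shControl1. The AMPA receptor genes Gria2, Gria3 and Gria4 rose by 0.34, 0.75 and 0.60, and Cadps, Copa and Cyfip2 complete the increases. Gabra3, Grik1, Igfbp7 and Adarb1 itself fell. In fits without 1 of the samples, 2 to 4 rose and 2 or 3 fell.

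Zfr has been tied to the splicing of histone variant transcripts, and of 10 tested genes of that list, 6 rose and 1 fell. H2afy, which encodes the histone variant macroH2A1, rose from 45.3 and 38.2 CPM to 96.8 and 98.2 CPM (log2 fold change 1.22 ± 0.11, adjusted p = 0.00012, edgeR) and was at 48.9 and 44.9 CPM in shControl1. The H3.3 genes H3f3a and H3f3b rose by 1.02 and 0.76, H2afz by 0.73, Hmgb2 by 0.95 and H2afx by 0.49, and Hmga1 fell by 0.59. With any 1 sample left out, 4 rose and 0 fell. Of the replication-dependent histone genes, 0 of 16 passed in either direction by edgeR or DESeq2 over all 10 samples. In the main edgeR fit 0 had an unadjusted p under 0.05. This depended on the fit. In the 4 samples alone edgeR called 4 higher and 1 lower, and with a term for the replicate number 7 higher and 1 lower. Those fits also called more of all genes. Gene totals cannot show a change in isoforms.

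Among 35 tested splicing factors and neuronal RNA-binding proteins, 12 rose and 3 fell. Cirbp, a cold-inducible RNA-binding protein, rose from 35.7 and 30.6 CPM to 79.1 and 75.3 CPM (log2 fold change 1.22 ± 0.13, adjusted p = 0.000256, edgeR). Srrm4, which promotes neuronal microexons, rose by 0.65, and Ptbp1, which represses neuronal exons, rose by 0.76. Srsf11, Srsf6, Srsf5, Tra2a, Tra2b, Hnrnpu, Hnrnpk, Khdrbs1 and Khdrbs2 were the other increases. The muscleblind genes Mbnl1 and Mbnl2 fell by 0.61 and 0.87, and Elavl2 fell by 0.52. When 1 of the 4 samples was dropped, 5 to 7 rose and 2 or 3 fell. In the microRNA pathway, 1 of 11 tested rose (Dgcr8) and 2 fell (Ago1 and Dicer1). Of all tested genes 16.7% rose and 14.1% fell, so these shares are not far from those of all genes. Ago1, which encodes an Argonaute protein, went from 231 and 219 CPM to 103 and 101 CPM, and Dicer1 from 215 and 227 CPM to 153 and 147 CPM. Against shControl1, Ago1 passed as lower too, and Dicer1 did not (log2 fold change −0.30, adjusted p = 0.065, edgeR). Of 14 nuclear-retained RNAs and paraspeckle protein genes, 4 rose (Neat1, Miat, Mirg and Pspc1) and 1 fell (Meg3). Meg3 was higher in shZfr than in shControl1 (log2 fold change 0.70, adjusted p = 0.00835, edgeR), the opposite call. For this list, with any 1 sample left out, 1 rose and 0 fell.

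Several receptor genes of inhibitory synapses were lower. Of 17 tested genes of GABA-A and glycine receptors, 8 fell and 1 rose, against 14.1% and 16.7% of all tested genes, and the median log2 fold change was −0.46. Glrb, the glycine receptor subunit that binds the scaffold gephyrin, fell from 148 and 170 CPM to 26.6 and 27.8 CPM (log2 fold change −2.54 ± 0.15, adjusted p = 2.35e-05, edgeR), and its value against shControl1 was −1.93. The GABA-A subunit genes Gabra3, Gabra4 and Gabrg3 fell by 1.25, 0.91 and 1.41 (Gabrg3 had −0.37 and did not pass against shControl1), and Gabrb2 and Gabrd were lower as well. Glra2, a fetal glycine receptor subunit, rose by 0.35, a call that was lost with DESeq2. In fits without 1 of the samples, 4 to 7 fell and 0 rose.

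Of 21 tested glutamate receptor genes, 3 rose, which are the AMPA receptor genes named above, and 6 fell. Among the NMDA receptor genes, Grin2a fell from 63.2 and 61.3 CPM to 23.1 and 22.2 CPM, Grin3a by 1.36 and Grin2d by 1.31 on the log2 scale. Grin1 and Grin2b had log2 fold changes of −0.29 each and did not pass. The metabotropic receptor gene Grm5 fell from 1153 and 1299 CPM to 557 and 579 CPM, but it was at a mean of 376 CPM in shControl1 and so was 0.60 higher on the log2 scale against that control (adjusted p = 0.00225, edgeR). Grik1 and Grm7 were the other decreases. With any 1 sample left out, 1 or 2 rose and 4 or 5 fell.

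Of 22 tested postsynaptic scaffold and signalling genes, 9 fell and 1 rose, with a median of −0.31. Besides Nrgn, the scaffold gene Dlg2 (PSD-93) fell from 645 and 660 CPM to 331 and 332 CPM, and the adhesion gene Nlgn3 from 163 and 148 CPM to 83.0 and 82.3 CPM. Shank1, Shank2, Dlg4 (PSD-95), Nlgn1, Homer2 and Lrrtm2 fell as well, while Homer3 rose by 1.40. When 1 of the 4 samples was dropped, 4 to 7 fell and 1 rose. Of 22 presynaptic genes, 4 fell (Rims1, Syt1, Syn3 and Sv2b) and 1 rose (Syt4), where 14.1% and 16.7% of all tested genes fell and rose. Against shControl1, Syn3 had a log2 fold change of 0.19 (adjusted p = 0.2, edgeR). Rims1, an organiser of the active zone, fell from 87.9 and 84.9 CPM to 40.8 and 38.5 CPM. Among 27 voltage-gated channel genes, 8 fell and 2 rose. The sodium channel genes moved apart: Scn2a1 fell from 694 and 719 CPM to 393 CPM in both shZfr samples, and the auxiliary subunit gene Scn2b rose from 42.6 and 39.0 CPM to 78.3 and 81.5 CPM. In fits without 1 of the samples, 4 to 6 channel genes fell and 1 rose.

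Of 28 tested genes of axon growth and guidance, 8 rose and 4 fell, where 16.7% and 14.1% of all tested genes did; the difference was not tested. The tubulin-binding protein gene Stmn1 rose from 585 and 551 CPM to 1091 and 1103 CPM, and Robo1, a Slit receptor, from 311 and 292 CPM to 515 and 530 CPM. Epha3, Efna5, Robo2, Gap43, Sema3a and Plxna2 were the other increases, and Slit2, Ntn1, Sema6a and Efnb2 fell. Stmn1 was at 1398 and 1513 CPM in shControl1 and so lower in shZfr than there by 0.41 on the log2 scale (adjusted p = 0.0131, edgeR). With any 1 sample left out, 3 to 6 rose and 2 fell.

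Markers of cell types moved unevenly, and in such bulk samples fewer cells of a type and less RNA per cell cannot be told apart. Of 15 tested GABAergic interneuron markers, 7 fell and 0 rose, with a median of −0.71. The GABA-synthesising enzyme gene Gad2 fell from 229 and 277 CPM to 107 and 112 CPM, the transcription factor genes Lhx6 and Dlx1 by 1.28 and 1.26, and the peptide gene Npy by 1.56 on the log2 scale, with Sst, Vip and Reln also lower. Slc32a1, the vesicular GABA transporter, had a log2 fold change of −0.08 (adjusted p = 0.868, edgeR). The summed level of the list was 1041 and 1067 CPM in shControl2 and 593 and 603 CPM in shZfr. The part of such a shift in the decreases of GABA-A receptor genes was not tested. When 1 of the 4 samples was dropped, 2 or 3 markers passed as lower. Gad2 was at a mean of 122 CPM in shControl1 and had a log2 fold change of −0.16 against it.

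Of 15 excitatory neuron markers, 2 rose (Tbr1 and Rorb) and 2 fell (Cux1 and Neurod2), shares no higher than the 16.7% and 14.1% of all tested genes. Tbr1, Rorb and Neurod2 no longer passed when any 1 sample was left out. The summed levels were 2043 and 2206 CPM against 2112 and 2127 CPM. Of 12 pan-neuronal markers, Nefh and Tubb3 rose and Syt1 fell. Nefh, the heavy neurofilament subunit, rose from 9.97 and 11 CPM to 49.2 and 50.7 CPM (log2 fold change 2.25 ± 0.20, adjusted p = 8.97e-05, edgeR) and was at a mean of 12.8 CPM in shControl1.

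Astrocyte and radial glia markers changed in both directions, and their median log2 fold change was −0.66 against shControl2 and 1.01 against shControl1. Of 14 tested, 6 fell. Slc1a2, a glutamate transporter, went from 959 and 1149 CPM to 197 and 184 CPM (log2 fold change −2.47 ± 0.15, adjusted p = 2.95e-05, edgeR), with Gja1, Slc4a4, Aqp4, Slc1a3 and Glul also lower. The 3 that rose were the intermediate filament genes Vim, Nes and Gfap, and Vim went from 168 and 166 CPM to 510 and 543 CPM. Slc1a2 had a log2 fold change of −0.63 against shControl1 (adjusted p = 0.0067, edgeR), and Gja1, Slc4a4, Aqp4, Slc1a3 and Glul did not pass there. In fits without 1 of the samples, 3 or 4 fell and 1 rose. Of 8 oligodendrocyte lineage markers, Olig1 and Mbp fell and 0 rose, with a median of −0.49; against shControl1 the median was 1.48 and Mbp was higher in shZfr (log2 fold change 0.76, adjusted p = 0.00722, edgeR). Of 14 markers of proliferating progenitors, Mcm2 passed as higher and all 14 log2 fold changes were above 0, with a median of 0.66 and summed levels of 579 and 623 CPM against 928 and 856 CPM. The number called depended on the fit, with 2 higher by DESeq2 and 10 by edgeR in the 4 samples alone. The call of Mcm2 was lost when any 1 sample was left out. Of 10 endothelial, mural and fibroblast markers, Dcn fell and 0 rose, and of 3 tested microglia markers 0 passed by edgeR or DESeq2.

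Metabolic and stress genes changed in smaller numbers. Of all tested genes 16.7% rose and 14.1% fell, and several of the shares in the lists here were near these. Of 19 tested cholesterol genes, 3 fell (Idi1, Insig1 and Stard4) and 1 rose. Idi1, an isomerase of the pathway, went from 323 and 304 CPM to 131 and 122 CPM, and none of the 3 genes that fell passed against shControl1. Of 20 genes of the integrated stress and unfolded protein responses, Sesn2 rose and Atf5, Slc7a11 and Chac1 fell, and leaving out 1 sample gave 1 higher and 0 to 2 lower, with Chac1 lost each time. Against shControl1, Sesn2 was lower in shZfr (log2 fold change −0.63, adjusted p = 0.00722, edgeR), Atf5 and Chac1 were lower as well, and Slc7a11 had −0.0066. Of 18 immediate early genes, Nr4a2 rose and Homer1 and Fosl2 fell; Homer1 went from 263 and 280 CPM to 146 and 141 CPM, but its mean was 158 CPM in shControl1 (log2 fold change −0.14, adjusted p = 0.301, edgeR). Nr4a2 had a log2 fold change of −0.96 against shControl1 (adjusted p = 0.0937, edgeR). Of 18 lysosomal genes, 4 fell (Psap, Lamp1, Lamp2 and Ctsb) and 3 rose (Grn, Npc2 and Hexa). Psap, the saposin precursor, went from 512 and 451 CPM to 270 CPM in both shZfr samples, but was at 79.5 and 69.8 CPM in shControl1 and so 1.86 higher on the log2 scale against that control (adjusted p = 1.46e-05, edgeR). With any 1 sample left out, 0 of the cholesterol genes rose and 1 or 2 fell.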

How the data were processed

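RNA was depleted of ribosomal RNA and sequenced, per the labels. The authors deposited RSEM expected counts per gene, and per site the counts of unedited (A) and edited (G) reads with an editing level as a fraction, per the file headers; that level equalled G/(A+G) within 0.0005 and was recomputed as a percentage. TPM values, deposited by the authors beside the expected counts, were not tested. The submitters' processing notes name the build mm9 and, without roles, STAR 2.5.4b, RSEM 1.2.30, Trim Galore 0.4.5, DESeq2 1.20.0 and SAMtools 1.4. The choice of sites is not given in the sources used.

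Expected counts were rounded. The 3 technical libraries of shAdar2 replicate 1 were summed, leaving 10 samples. Genes were kept by filterByExpr, normalised by TMM and tested with the quasi-likelihood F test of edgeR 4.0.16 (R 4.3.3) over all 10 samples, which share 1 estimate of spread, with group as the term. Sites with 20 or more reads in each of the 4 samples and, summed over them, 5 or more edited and 5 or more unedited reads were tested by the same method on edited and unedited reads, with a coefficient per library. Genes and sites with p under 0.05 after Benjamini-Hochberg adjustment were called. Standard errors derive from each F statistic. Depth was 1.58e+07 to 2.97e+07 expected counts over the 12 samples; Wilson intervals (95%) and floors (3 counts) cover counting error only. The tests were checked on simulated data. The simulated site reads held counting error only, so that check does not cover further spread between replicates.

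The members, the 30 gene lists and the rules were chosen with earlier results of these data known. Named genes were Adar, Adarb1, Adarb2 and the DZF list; the 12 largest increases and decreases among called genes whose groups did not overlap and whose higher mean reached 5 CPM; and up to 4 called members (lowest p) of lists with 3 or more calls, up to 2 of others. Further list members are named to complete a count. Named sites were the 12 largest decreases and up to 4 increases, at most 2 per cluster. Alternatives were the test of DESeq2 (1.42.0), its size factors within edgeR, no filter, the 4 samples alone, a replicate block, samples left out in turn, coverage minimums of 10 and 50 reads and Fisher's exact test on pooled reads; summing both shZfr samples was chosen after seeing the data. Ddx15, Hmgcs1, Tut4 and Tut7 were not analysed here. Some named genes are left out of the text and are not reported here.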

Additional observations from a re-analysis of the deposited data

How the results depend on the processing

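Every alternative kept the direction of each named gene and of each named site it tested that passed the main test; with 50 reads in each sample 4 of the 13 named sites were tested. Of 108 calls of named genes, 108 were kept with DESeq2 size factors, in the 4 samples alone and with the replicate block, and 107 with DESeq2 and without the filter (Pspc1 was lost in both). Leaving out a sample kept 83 to 89, and summing the shZfr samples kept 85. The counts of genes higher and lower in shZfr were 3854 and 4055 in the 4 samples alone, whose spread is set by the 2 groups compared. With the replicate block they were 4088 and 4207. The labels do not tie equal replicate numbers together, and the deviations of equal numbers correlated over 11111 genes at r = 0.132, so the block shares only a number. Leaving out a sample gave 942 to 1336 higher and 924 to 1268 lower, and summing the shZfr samples gave 1077 and 932; fewer samples were tested in these. Adar, which did not pass, had log2 fold changes of −0.032 to 0.20 when a sample was left out, the lowest without shControl2 replicate 2.

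For sites, 117 were lower with the replicate block and 164 by Fisher's exact test. With 50 reads in each sample 50 were lower and 0 higher, among 265 tested. Leaving out a sample gave 17 to 106 lower and 0 to 2 higher. The difference of the mean editing level was −5.93 percentage points with 10 reads in each sample, −3.77 from edited over all reads, and −5.55 to −5.01 when a sample was left out. The depth of 20 reads limits what a single site can show: the intervals of the named sites show how wide a level from 1 sample is, and no site was read as unedited from a count of 0.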
